A study of Mus musculus with 6 samples.

Results

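The imprinted growth genes are 10 genes chosen by name (H19, Meg3, Rian, Dlk1, Peg3, Plagl1, Cdkn1c, Mest, Grb10 and Ndn), and their rows were taken by symbol from a table of 30462 genes. The table holds RNA-seq values of the whole cochlea, the part of the ear that detects sound, from mice at postnatal day 7. The comparison is between 3 libraries labelled NEU4 KO (knockouts 2, 4 and 5) and 3 labelled WT (wild types 3, 4 and 5). Neu4 codes for a sialidase, which trims sialic acid residues from glycans. The allele, strain, sex and any pooling of animals are not given in the labels, nor is it said that each library came from a separate animal, so p-values measure the spread between these libraries.

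Imprinted genes are read mainly from the copy inherited from one parent, because the copies carry different DNA methylation laid down in the germ line. Many of them act on growth before and just after birth. As a rule, genes read from the paternal copy favour growth and genes read from the maternal copy restrain it, and the levels of many decline as a young animal matures. Of the 10 genes, Dlk1, Peg3, Plagl1, Mest and Ndn (5 genes) are usually read from the paternal copy and H19, Meg3, Rian, Cdkn1c and Grb10 (5 genes) from the maternal copy. Grb10 is read from the paternal copy in neurons. They fall into 8 imprinted clusters, with 4 genes on chromosome 7, which holds 7.68% of the genes in the table, and 3 on chromosome 12, which holds 4.03%.

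Sequences of 4 promoters are shown because imprints are carried by methylated CG dinucleotides and because these genes include the one with the smallest p between the genotypes (Ndn) and the ones whose mean differed in opposite directions (Mest lower, Peg3 and Plagl1 higher in the knockouts). Capitals mark each CG. The windows run from 250 bases before to 50 bases after a RefSeq transcript start in build GRCm38.p6, and are written 5′ to 3′ on the strand of the gene. They lie at chr7:62348027-62348326 (plus strand, Ndn, 11 CG), chr6:30737800-30738099 (plus strand, Mest, 17 CG), chr7:6730370-6730669 (minus strand, Peg3, 13 CG) and chr10:13090582-13090881 (plus strand, Plagl1, 26 CG).
Ndn: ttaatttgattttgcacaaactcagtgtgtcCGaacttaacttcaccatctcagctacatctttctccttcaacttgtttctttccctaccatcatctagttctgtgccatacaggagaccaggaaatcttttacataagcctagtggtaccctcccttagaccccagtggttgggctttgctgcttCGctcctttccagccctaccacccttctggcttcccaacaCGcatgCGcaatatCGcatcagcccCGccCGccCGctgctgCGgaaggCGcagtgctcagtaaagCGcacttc
Mest: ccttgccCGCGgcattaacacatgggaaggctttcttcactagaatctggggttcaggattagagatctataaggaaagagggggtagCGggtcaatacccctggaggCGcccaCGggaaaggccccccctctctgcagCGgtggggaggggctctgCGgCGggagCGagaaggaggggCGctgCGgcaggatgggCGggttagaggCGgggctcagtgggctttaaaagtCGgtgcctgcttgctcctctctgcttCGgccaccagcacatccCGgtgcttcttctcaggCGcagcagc
Peg3: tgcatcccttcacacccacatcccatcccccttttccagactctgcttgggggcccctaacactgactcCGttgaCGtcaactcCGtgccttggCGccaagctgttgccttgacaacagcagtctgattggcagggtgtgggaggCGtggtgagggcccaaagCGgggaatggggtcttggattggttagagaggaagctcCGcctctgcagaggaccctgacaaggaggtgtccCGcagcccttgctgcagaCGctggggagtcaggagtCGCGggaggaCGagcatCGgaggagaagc
Plagl1: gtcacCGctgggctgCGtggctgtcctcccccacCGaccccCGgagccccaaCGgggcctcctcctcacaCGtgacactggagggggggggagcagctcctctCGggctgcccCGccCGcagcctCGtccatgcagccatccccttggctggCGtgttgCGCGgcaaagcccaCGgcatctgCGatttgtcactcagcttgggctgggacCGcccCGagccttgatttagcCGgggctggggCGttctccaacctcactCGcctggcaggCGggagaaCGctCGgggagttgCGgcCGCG

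Promoter windows were matched by symbol for 8 of the 10 genes (12 windows, several genes having more than 1 start), and H19 and Cdkn1c were not matched. At least 10 CG were found in 7 of the 12 windows, while 43.5% of all 32851 windows of the same length held as many. The hexamer TGCCGC, read on both strands, is the core of the motif bound by ZFP57, a zinc finger protein that keeps imprints methylated. It was present in 5 of the 12 windows, which belong to 4 genes (Mest, Plagl1, Grb10 and Meg3) and include a pair of nearly identical Mest windows, and in 11.6% of all windows, or 22.5% of windows with at least 10 CG. The palindrome GGGGCCCC, part of the motif bound by the Plagl1 protein, was present in 1 member window, that of Peg3, and in 1.08% of all windows. These matches describe letters in the windows only.

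Both H19 and Mest also host microRNAs, whose mature sequences are shown with the seed (bases 2 to 8) in capitals. The hairpin of miR-675 lies in an exon of H19 and that of miR-335 in an intron of Mest.
miR-675-5p: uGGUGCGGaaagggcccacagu
miR-675-3p: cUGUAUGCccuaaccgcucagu
miR-335-5p: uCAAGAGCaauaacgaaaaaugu
miR-335-3p: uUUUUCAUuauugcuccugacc
The 4 seeds differ from each other. The hairpin gene Mir335 had 1, 1 and 1 fragments in the 3 knockouts, against 1, 4 and 0 fragments in wild types 3, 4 and 5, too few to compare, and these libraries do not measure mature microRNAs. No gene of the deposited table carried the symbol Mir675, so it has no separate value here.

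The libraries held 15170973 to 17192293 fragments, as implied by the values. Cochlear markers were expressed in every library, by their summed FPKM. For 12 hair cell markers the sum was 54.4 to 61.7 in knockouts and 45.97 to 50.4 in wild types. For 8 strial markers it was 87.6 to 93.8 and 74.5 to 76.5, and for 10 supporting cell and matrix markers 392 to 425 and 345 to 366. Tectb, a tectorial membrane protein gene, averaged 111 ± 9.39 FPKM in knockouts and 95.2 ± 1.21 in wild types (SD, n = 3 each). The targeted gene Neu4 had 4, 8 and 6 fragments in the knockouts and 4, 8 and 6 in the wild types (exact two-sided permutation p = 0.8, 0.1 being the smallest p that 3 against 3 can give), so its RNA did not check the labels. The Y-linked gene Ddx3y was expressed in 1 knockout (2) and 2 wild types (3 and 4) and not in 2 knockouts (4 and 5) and 1 wild type (5), so sex and genotype were unequally combined.

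None of the imprinted growth genes passed the test across all genes. The test used limma on log2(FPKM + 1), which understates the change of low genes, with Benjamini-Hochberg adjustment over the 14072 genes that reached 1 FPKM in 3 libraries or more. By that filter 8 members were tested, and Meg3 and Rian were not. The count was 0 of 8 at an adjusted p under 0.05, where 0.334% of all tested genes were called (18 higher and 29 lower, the lower ones being 0.206%). At an unadjusted p under 0.05 it was 2 of 8 (Ndn and Cdkn1c, both lower), against 17.6% of all tested genes in either direction and 6.99% lower. The mean was below that of the wild types for 7 of the 10 genes and above it for 3 (Grb10, Plagl1 and Peg3). Of the 8 tested genes 5 had a log2 fold change below 0, as did 43.1% of all tested genes. The median log2 fold change of the 8 tested genes was -0.15, beside 0.02 for all tested genes.

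**Figure D1:**
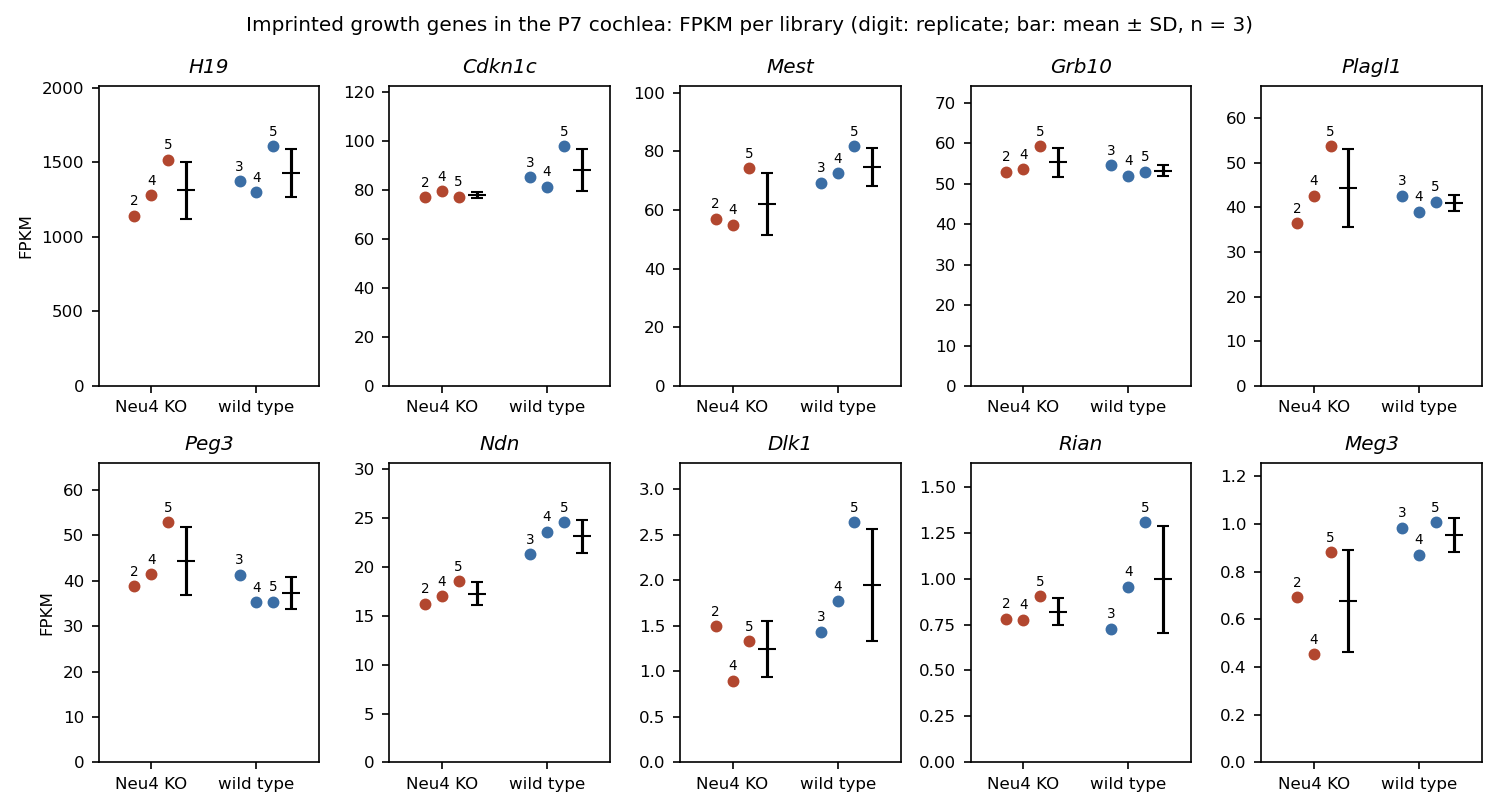
FPKM of the 10 genes in each library (points, labelled with the replicate number), knockouts left and wild types right, with the group mean and SD (n = 3) as a black bar and each vertical axis starting at 0. The 3 knockouts lie below the 3 wild types for Ndn and Cdkn1c, and the points of the 2 groups overlap for the other 8 genes.

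The levels spanned a wide range and kept nearly the same order in each library. H19, a long non-coding RNA, was the highest at 1141 to 1608 FPKM, at percentiles 99.95 to 99.96 of the table, and took 0.281% to 0.396% of all fragments. Below it came Cdkn1c (77.1 to 97.9), Mest (55.0 to 81.8), Grb10 (52.0 to 59.4), Plagl1 (36.5 to 53.8), Peg3 (35.2 to 52.8) and Ndn (16.2 to 24.5). Dlk1 (0.898 to 2.63), Rian (0.727 to 1.30) and Meg3 (0.454 to 1.01), all of the chromosome 12 cluster, were near the middle of the table. Within a library the order from H19 down to Dlk1 held in 6 of 6 libraries at each step except that from Plagl1 to Peg3, which held in 5. Dlk1 was above Rian in 6 libraries and Rian above Meg3 in 5. Over all libraries the ranges of neighbouring genes overlapped from Cdkn1c down to Peg3, and those of Plagl1 and Peg3 differed by less than their spread. FPKM divides by all annotated exon bases, 18089 for Meg3 and 31981 for Rian, so a gene whose usual transcript is shorter is shown lower than its RNA.

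Ndn was the imprinted growth gene with the smallest p and was lower in the knockouts, without passing the adjusted threshold. It encodes necdin, a protein of the MAGE family that restrains cell division and promotes differentiation and survival of neurons, and lies in the cluster deleted in Prader-Willi syndrome in people (ENSMUSG00000033585, chromosome 7, 62346569 to 62350262, plus strand, GRCm38). Ndn had 16.2, 17.0 and 18.5 FPKM in knockouts 2, 4 and 5, against 21.3, 23.6 and 24.5 FPKM in wild types 3, 4 and 5. All 3 knockouts lay below all 3 wild types, and the groups did not overlap. The mean of 17.2 ± 1.17 FPKM in knockouts was 74.5% of the 23.1 ± 1.68 FPKM in wild types (SD, n = 3 each), a log2 fold change of -0.40 (SE 0.069).

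The adjusted p of Ndn was 0.0745 (limma; unadjusted p = 0.000572; exact permutation p = 0.1, the smallest possible), and its absolute change was at percentile 96.1 of all tested genes. The call depended on the setting, passing in 4 of 20 alternatives. It passed when only genes of at least 5 FPKM were tested (adjusted p = 0.0428, with 1.27% of genes called and 0.726% called lower), with library weights (0.0431, 0.739% called, 0.448% lower) and with voom on fragments recovered from the FPKM values (0.0162, 2.89% called, 1.19% lower). It also passed with voom and a lower minimum of 10 fragments, a fit chosen after the values were seen (0.0179, 2.05% called, 0.921% lower). Over the 20 alternatives the adjusted p ran from 0.0162 to 0.222 (limma), and with 1 library left out the fold change was -0.46 to -0.36 with an adjusted p of 0.0598 to 0.222. The value rests on 998 to 1062 fragments per knockout and 1298 to 1499 per wild type. An antisense long non-coding gene, Gm32061, overlaps its exon, and the sources do not say whether fragments were assigned by strand.

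The 3 tested genes within 250 kb of Ndn had smaller differences, in either direction, and whether they differ from that of Ndn was not tested. Magel2, a related MAGE gene, had 0.765, 1.11 and 1.08 FPKM in knockouts against 1.23, 0.904 and 1.15 FPKM in wild types (log2 fold change -0.08, SE 0.12, adjusted p = 0.766, limma). Mkrn3, which encodes a zinc finger ubiquitin ligase, averaged 1.46 ± 0.369 FPKM in knockouts and 1.35 ± 0.369 FPKM in wild types (SD, n = 3 each; log2 fold change 0.07, adjusted p = 0.854, limma). Peg12 averaged 3.65 ± 0.268 FPKM in knockouts and 3.29 ± 0.303 FPKM in wild types (0.12, adjusted p = 0.487). The values of Magel2 and Mkrn3 rest on 42 to 94 fragments per library.

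Cdkn1c and Grb10 encode inhibitors of the cell cycle and of growth factor receptors. Cdkn1c encodes p57, an inhibitor of cyclin-dependent kinases that takes cells out of the cell cycle (ENSMUSG00000037664, chromosome 7, 143458339 to 143461050, minus strand). Its levels were 77.1, 79.5 and 77.3 FPKM in knockouts 2, 4 and 5 and 85.2, 81.3 and 97.9 FPKM in wild types 3, 4 and 5. The knockouts were all lower and nearly alike, and the wild types spread more widely. The log2 fold change was -0.17 (SE 0.069, unadjusted p = 0.0424, adjusted p = 0.269, limma), and without wild type 5 it was -0.092. An antisense gene, Gm44732, shares exon bases with Cdkn1c and had at most 0.208 FPKM. Non-overlap of the groups in the lower direction, found for Ndn and Cdkn1c, was found for 9.54% of all tested genes, and in either direction for 24.8%, and in the lower direction for 6.26% of all genes in the table.

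Grb10, an adaptor that binds the insulin and IGF1 receptors and damps their signal (ENSMUSG00000020176, chromosome 11, 11930508 to 12038683, minus strand), was the steadiest gene of the set. It had 53.0, 53.6 and 59.4 FPKM in knockouts and 54.7, 52.0 and 53.0 FPKM in wild types. The groups overlapped, knockout 5 being the highest library, and the log2 fold change was 0.05 (SE 0.053, adjusted p = 0.639, limma), or 0.0022 without knockout 5. Its spread within groups, 0.068 on the log2 scale, was at percentile 31.0 of all tested genes.

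H19 and Mest were lower on average in the knockouts but overlapped between the groups. H19 (ENSMUSG00000000031, chromosome 7, 142575529 to 142578143, minus strand) restrains growth and shares an imprinting control region with Igf2. It had 1141, 1277 and 1516 FPKM in knockouts 2, 4 and 5, against 1372, 1299 and 1608 FPKM in wild types 3, 4 and 5. The highest library of each genotype was replicate 5, and the log2 fold change of -0.12 (SE 0.12, adjusted p = 0.633, limma) was as large as its error. It was -0.03 without knockout 2, -0.035 without wild type 5, -0.23 without knockout 5 and -0.0096 with quantile scaling. Igf2, the fetal growth factor gene on the other side of that control region, had 46.4, 51.6 and 63.4 FPKM in knockouts and 51.7, 53.3 and 58.7 FPKM in wild types (log2 fold change -0.03, SE 0.11, adjusted p = 0.910), and its receptor Igf2r, which removes the factor, had -0.02 (SE 0.052, adjusted p = 0.8999). H19 exceeded Igf2 per exon base by 23.9 to 24.8 times in knockouts and by 24.4 to 27.4 times in wild types.

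Mest, or Peg1, encodes a hydrolase-like protein of mesoderm derivatives (ENSMUSG00000051855, chromosome 6, 30723547 to 30748465, plus strand). It had 57.0, 55.0 and 74.1 FPKM in knockouts 2, 4 and 5, against 69.2, 72.6 and 81.8 FPKM in wild types 3, 4 and 5. Knockouts 2 and 4 were below every wild type, while knockout 5 was above wild types 3 and 4. The log2 fold change was -0.27 (SE 0.12, unadjusted p = 0.0534, adjusted p = 0.291, limma). With 1 library left out it ran from -0.40 without knockout 5 (adjusted p = 0.0843) to -0.19 without knockout 4 (adjusted p = 0.508). It was -0.20 without wild type 5 and -0.22 without knockout 2. Mest shares exon bases with Copg2, a vesicle coat gene on the opposite strand, which had 11.5 ± 0.842 FPKM in knockouts and 10.03 ± 0.330 in wild types (SD, n = 3 each; adjusted p = 0.207).

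Peg3 and Plagl1, the zinc finger factors of the set, were higher on average in the knockouts, mainly through knockout 5. Peg3 (ENSMUSG00000002265, chromosome 7, 6703892 to 6730431, minus strand) encodes a repressor that acts in stem cells and in maternal and fetal growth. It had 38.8, 41.5 and 52.8 FPKM in knockouts 2, 4 and 5 and 41.4, 35.2 and 35.4 FPKM in wild types 3, 4 and 5, so knockouts 4 and 5 were above every wild type and knockout 2 was not. The log2 fold change was 0.23 (SE 0.12, adjusted p = 0.350, limma), and it was 0.10 without knockout 5. Zim1, the maternally read zinc finger gene next to Peg3, had 11.3, 13.7 and 17.0 FPKM in knockouts and 14.5, 11.96 and 14.1 FPKM in wild types (log2 fold change 0.03, adjusted p = 0.922).

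Plagl1 (ENSMUSG00000019817, chromosome 10, 13060504 to 13131694, plus strand) encodes ZAC1, a transcription factor that stops the cell cycle and activates other imprinted genes, Igf2, H19, Dlk1 and Cdkn1c among them. It had 36.5, 42.7 and 53.8 FPKM in knockouts 2, 4 and 5, against 42.7, 39.0 and 41.3 FPKM in wild types 3, 4 and 5. The knockouts held both the lowest and the highest library. The log2 fold change of 0.09 (SE 0.13, adjusted p = 0.739, limma) changed sign to -0.05 without knockout 5 and was 0.22 without knockout 2.

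**Figure D2:**
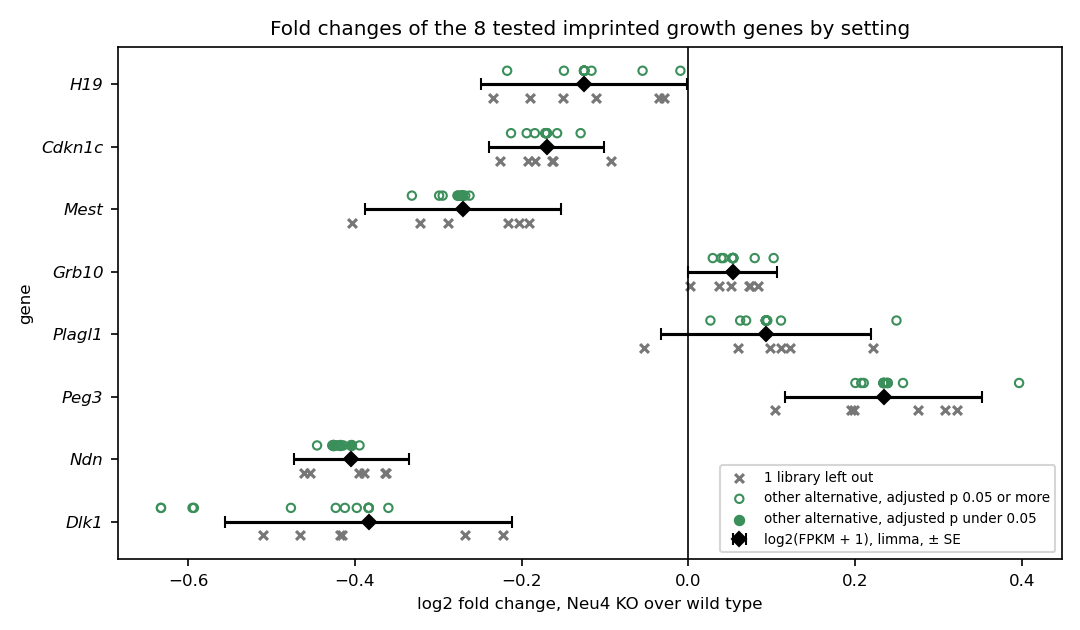
Log2 fold change (knockout over wild type, horizontal axis) of the 8 tested genes under limma on log2(FPKM + 1) (black diamonds, bars are ± SE), under the other alternatives (green circles, filled where the adjusted p was under 0.05) and with 1 library left out (grey crosses). Only Ndn has filled circles, and its values stay between -0.46 and -0.36; Plagl1 has 1 value below 0, at -0.05.

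The chromosome 12 cluster was scarcely expressed and was lower on average in the knockouts for all 3 of its members. Dlk1 encodes a membrane protein of the Notch ligand family that holds back fat cell differentiation (ENSMUSG00000040856, chromosome 12, 109452823 to 109463336, plus strand). It had 1.496, 0.898 and 1.33 FPKM in knockouts 2, 4 and 5, from 141, 86 and 114 fragments, against 1.43, 1.77 and 2.63 FPKM in wild types 3, 4 and 5, from 134, 172 and 238 fragments. Only wild type 3 overlapped with the knockouts. Its log2 fold change was -0.38 (SE 0.17, adjusted p = 0.306, limma) on the scale with 1 added, and -0.63 with voom on fragments (adjusted p = 0.180). On the first scale it was -0.22 without wild type 5.

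Meg3 and Rian are non-coding RNAs of the same cluster, read from the maternal copy, and Rian hosts many small nucleolar RNAs. Meg3 (ENSMUSG00000021268, 109541001 to 109571726, plus strand) had 0.693, 0.454 and 0.882 FPKM in knockouts and 0.984, 0.871 and 1.01 FPKM in wild types, and 1 knockout value was above 1 wild type value. Rian (ENSMUSG00000097451, 109603808 to 109661716, plus strand) had 0.781, 0.776 and 0.903 FPKM in knockouts and 0.727, 0.955 and 1.30 FPKM in wild types, with wild type 3 the lowest library of all. Neither passed the filter. They were tested only without a filter, at a log2 fold change of -0.23 for Meg3 (adjusted p = 0.549, limma) and -0.12 for Rian (0.721), where 0.0624% of genes were called and 0.0394% called lower, and in a fit chosen after the values were seen, voom on all genes with at least 10 fragments in at least 3 libraries. That fit gave -0.56 (SE 0.19, adjusted p = 0.144) for Meg3, from 590 fragments in knockouts and 856 in wild types. It gave -0.24 (SE 0.17, adjusted p = 0.495) for Rian, from 1274 fragments in knockouts and 1576 in wild types. It called 2.05% of its genes.

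Mirg, a host gene of microRNAs farther along this cluster, had 1.05, 1.04 and 1.38 FPKM in knockouts and 1.58, 1.39 and 2.21 FPKM in wild types (log2 fold change -0.33, SE 0.14, unadjusted p = 0.0428, adjusted p = 0.270, limma). Those values did not overlap, although knockout 5 and wild type 4 were nearly equal. Dio3, the deiodinase gene at the end of the cluster, was at 0.0296 to 0.349 FPKM in all libraries. Knockout 4 had the lowest value of both Dlk1 and Meg3, and wild type 5 the highest value of all 4 RNAs (Dlk1, Meg3, Rian and Mirg). The summed levels of the muscle lists had the same extremes, 39.3 FPKM in knockout 4 and 709 FPKM in wild type 5 for 16 skeletal muscle genes, and 5.38 FPKM in knockout 4 and 16.1 FPKM in wild type 5 for 8 genes of myogenic precursors. Their part in the chromosome 12 values was not tested.

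Variation between libraries of the same genotype was a second feature of the set. The median spread within groups of the 8 tested genes was 0.19 on the log2 scale, beside 0.090 over all tested genes, and those of H19, Mest, Peg3, Plagl1 and Dlk1 were at percentiles 86.2 to 92.3 of all tested genes. Knockout 5 was the highest knockout for 8 of the 10 genes and the lowest for 0, where it was the highest for 42.7% of all tested genes. Wild type 5 was the highest wild type for 7 of the 10 and the lowest for 0, beside 37.9% of all tested genes. These 2 libraries were the shallowest and had the largest mitochondrial shares (2.48% and 2.56%). Markers of skeletal muscle, a tissue in which H19 is abundant, also had their highest sum of each genotype in them. The 16 muscle genes summed to 260, 39.3 and 295 FPKM in knockouts 2, 4 and 5, against 315, 166 and 709 FPKM in wild types 3, 4 and 5. Between the genotypes 12 of 13 tested muscle genes were below 0, beside 43.1% of all tested genes. Of the 13, 0 had an unadjusted p under 0.05, beside 17.6% of all tested genes. Each of them overlapped between the genotypes, as did the sums. The part of the muscle genes in the spread was not tested.

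**Figure D3:**
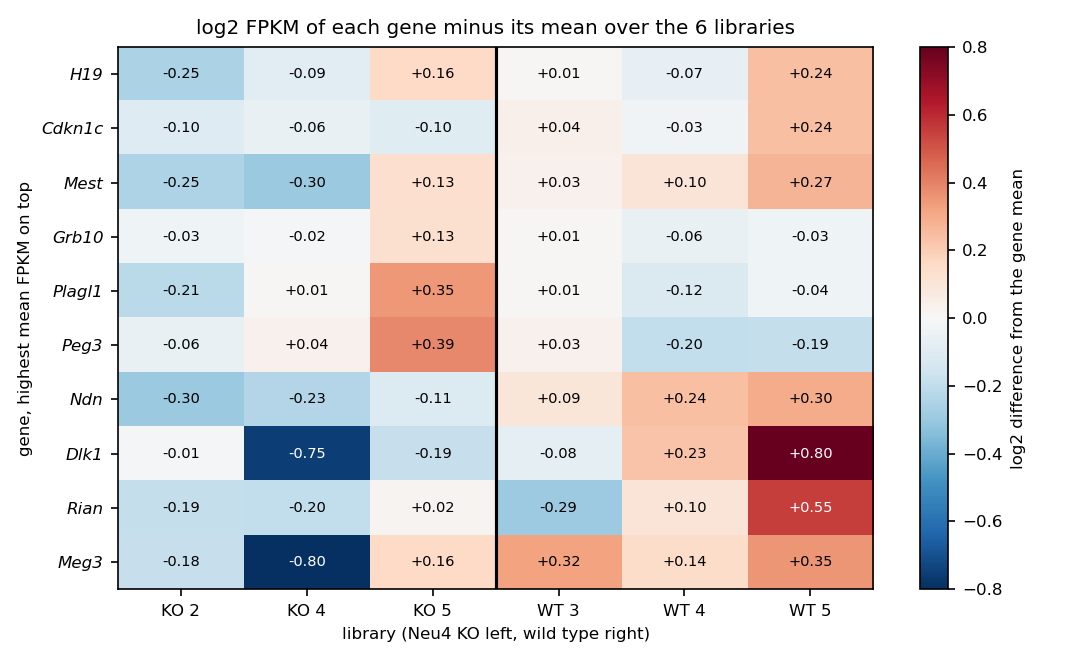
Log2 FPKM of each of the 10 genes (rows) in each library (columns, knockouts left, wild types right) minus the mean of that gene over the 6 libraries. Ndn, Cdkn1c and Dlk1 are below their mean in all 3 knockouts, and knockout 5 is above the mean for 7 genes, from 0.02 for Rian to 0.39 for Peg3.

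The genotypes were also compared within the libraries with and without Ddx3y, a description chosen after the values were seen. For 5 of the 10 genes (Ndn, Cdkn1c, H19, Mest and Meg3) the knockouts were below the wild types in both sexes, and for 0 they were above in both. The same held for 16.4% of all tested genes in the lower direction and 23.5% in the higher, and for 10.8% of all genes in the table in the lower. For H19 the male libraries had 1141 FPKM in the knockout and 1372 and 1299 FPKM in the wild types, and the female ones 1277 and 1516 FPKM in the knockouts and 1608 FPKM in the wild type. With sex as a covariate the log2 fold change was -0.22 for H19 (adjusted p = 0.249, limma), -0.33 for Mest (0.213), -0.21 for Cdkn1c (0.167) and -0.445 for Ndn (0.0790), and 0 members were called.

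Genes listed as imprinted outside the set showed 0 calls as well. They are grouped by the copy they were listed under, and the copy read in these libraries was not measured. Over all tested genes 17.6% had an unadjusted p under 0.05 and 43.1% were below 0. Of 21 other genes listed as paternally read, 15 were tested, with 9 above and 6 below 0 (median log2 fold change 0.12, and 2 at an unadjusted p under 0.05). Among those of at least 5 FPKM in a group, Nap1l5, a histone chaperone family gene, had the largest difference, 10.48, 11.7 and 8.83 FPKM in knockouts and 5.42, 8.93 and 7.57 FPKM in wild types (log2 fold change 0.47, SE 0.17, adjusted p = 0.217, limma), and it was 0.29 without wild type 3. Nnat, which encodes the membrane protein neuronatin (0.19, adjusted p = 0.341, and 0.11 without wild type 3), and Slc38a4, an amino acid transporter gene (0.15, adjusted p = 0.288, and 0.082 without knockout 5), had the next largest. Of 25 other genes listed as maternally read, 19 were tested, with 7 above and 12 below 0 (median -0.02, and 4 at an unadjusted p under 0.05). Among them Gnas, the gene of a signalling G protein, had -0.18 (adjusted p = 0.368, and -0.097 without knockout 2 or -0.28 without knockout 5), Tssc4 had -0.14 (0.469, and -0.042 without knockout 2), and Cd81, a tetraspanin gene, had 61.9 ± 2.34 FPKM in knockouts and 68.3 ± 2.37 in wild types (log2 fold change -0.14, SE 0.046, adjusted p = 0.195). Kcnk9, a potassium channel gene, was called higher by voom (1.498 ± 0.162 FPKM in knockouts and 1.00 ± 0.132 FPKM in wild types, n = 3 each) and had an adjusted p of 0.178 by limma.

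Factors that maintain imprints were measured in the same libraries. The list held 11 genes, of which 9 were tested, 0 were called and 2 had an unadjusted p under 0.05, as did 17.6% of all tested genes. Trim28, the co-repressor recruited by ZFP57, had 52.2, 51.2 and 56.8 FPKM in knockouts 2, 4 and 5 and 60.7, 61.4 and 59.5 FPKM in wild types 3, 4 and 5 (log2 fold change -0.18, SE 0.048, adjusted p = 0.151, limma). Zfp57 had 5.61, 6.30 and 7.12 FPKM in knockouts and 7.65, 7.56 and 7.19 FPKM in wild types (-0.21, SE 0.080, adjusted p = 0.247), and the difference was -0.14 without knockout 2. Both were lower in every knockout than in any wild type, and neither passed the adjusted threshold. In this list 3 tested genes did not overlap in the lower direction and 1 in the higher. Over all tested genes the shares were 9.54% and 15.2%. Ctcf, the insulator protein gene that acts at the H19 control region, had 18.03 ± 0.435 FPKM in knockouts and 16.9 ± 0.680 FPKM in wild types (log2 fold change 0.09, adjusted p = 0.372).

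Partners of the members in growth signalling showed 0 calls among 18 genes tested, with 8 above and 10 below 0. An unadjusted p under 0.05 was found for 2 of them, and for 17.6% of all tested genes. Over all tested genes 43.1% were below 0. Irs1, the adaptor of the insulin and IGF1 receptors, had 6.87, 6.42 and 7.33 FPKM in knockouts and 6.27, 5.30 and 3.39 FPKM in wild types (log2 fold change 0.43, SE 0.17, adjusted p = 0.268, limma), and the difference was 0.22 without wild type 5. Igf1, the growth factor gene, averaged 16.2 ± 2.45 FPKM in knockouts and 19.02 ± 1.02 in wild types (-0.23, adjusted p = 0.290), and its receptor gene Igf1r 7.11 ± 0.597 FPKM in knockouts and 6.36 ± 0.589 in wild types (0.14, adjusted p = 0.410, and 0.080 without knockout 5 or 0.085 without wild type 5).

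Genes around the members on the chromosomes were examined because imprinted genes are controlled in clusters. Of 78 other genes that start within 250 kb of a member, 35 were tested, 20 below and 15 above 0, with a median log2 fold change of -0.02. Over all tested genes 43.1% were below 0, 17.6% had an unadjusted p under 0.05 and 0.334% were called. Among the 35 neighbours, 5 had an unadjusted p under 0.05 and 1 was called. The 1 call was Mir3072, a hairpin gene inside Mirg (adjusted p = 0.0425, limma), which rests on 1, 1 and 1 fragments in knockouts, against 5, 6 and 3 fragments in wild types, and was not called by voom. Next to Mest, Cep41, a centrosome gene, had 8.53 ± 0.198 FPKM in knockouts and 6.79 ± 0.767 in wild types (log2 fold change 0.30, adjusted p = 0.146, n = 3 each), opposite in sign to Mest. Next to H19 lie Tnnt3 and Tnni2, troponin genes of fast muscle and members of the muscle list above, whose log2 fold changes of -0.94 and -0.78 (adjusted p = 0.484 and 0.587, limma) had SEs of 0.64 and 0.68.

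**Figure D4:**
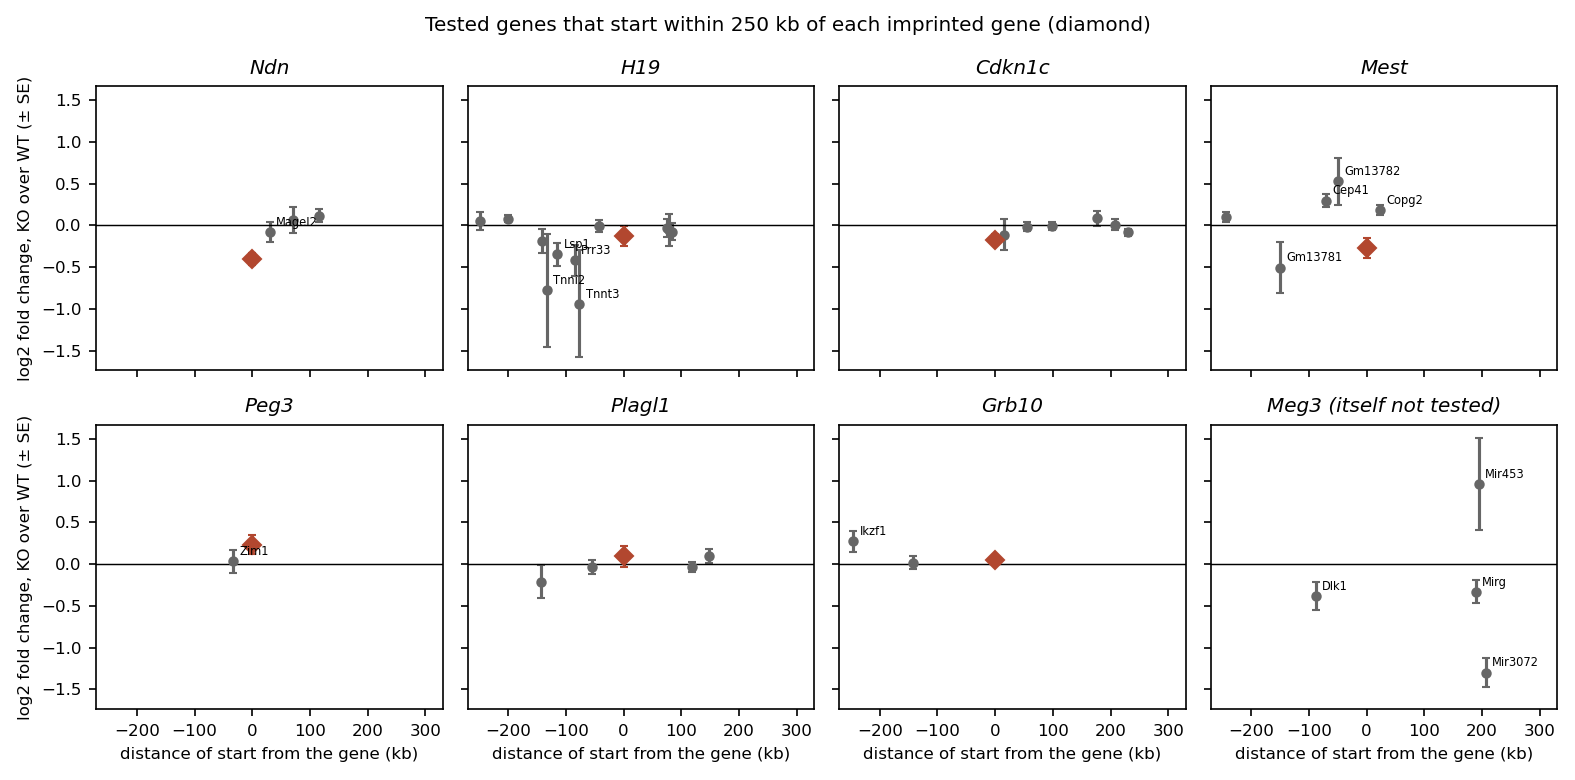
Log2 fold change (knockout over wild type, ± SE) of tested genes against the distance of their start from that of an imprinted gene in kb, with the imprinted gene itself as a red diamond at 0 (Dlk1, itself a member, is shown beside Meg3, which was not tested). Genes are named where the value is 0.25 or more either way, as are Magel2, Zim1 and Copg2. Ndn at -0.40 stands below its 3 tested neighbours, which lie between -0.08 and 0.12.

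Summed levels of several marker lists also differed between the genotypes in these libraries, most of them with few or no genes called. In bulk tissue fewer cells of a type and less RNA per cell cannot be told apart. Over all tested genes 43.1% were below 0, 17.6% had an unadjusted p under 0.05 and 0.334% were called. The summed FPKM of 10 adipocyte markers was 6.59 to 26.6 in knockouts and 35.6 to 57.5 in wild types. All 8 tested genes were below 0, 8 had an unadjusted p under 0.05, and 0 were called. Ucp1, the uncoupling protein gene of brown fat, had 5.61, 0.0722 and 11.5 FPKM in knockouts 2, 4 and 5, against 19.1, 14.9 and 16.6 FPKM in wild types 3, 4 and 5 (log2 fold change -1.99, SE 0.79, adjusted p = 0.260, limma), and Fabp4, a fatty acid carrier gene, had 8.62, 4.25 and 8.003 FPKM in knockouts, against 17.02, 10.6 and 8.35 FPKM in wild types. Middle ear epithelium markers (8 genes) summed to 16.3 to 107 in knockouts and 397 to 751 in wild types. Of these 4 were tested, 3 below and 1 above 0, with 3 at an unadjusted p under 0.05 and 0 called. The 1 above 0, Lcn2, did not overlap. Endothelial markers (8 genes) summed to 125 to 137 in knockouts and 140.1 to 152 in wild types. Of these 6 were below and 2 above 0, with 5 at an unadjusted p under 0.05 and 0 called. Proliferation markers (16 genes) summed to 156 to 163 in knockouts and 168 to 173 in wild types. Of these 10 were below and 6 above 0, with 3 at an unadjusted p under 0.05 and 0 called. Of 12 mesenchyme and fibroblast markers 11 were below 0, 6 had an unadjusted p under 0.05 and 2 were called lower (Fbln1 and Col6a2, both matrix protein genes). The sums of that list overlapped (5330 to 6509 in knockouts and 6242 to 7186 in wild types). Every gene of the table was above 0 in at least 1 library, so this held for all markers.

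Summed levels of hair cell, supporting cell, strial marginal cell and osteoblast markers were higher in knockouts, and those of spiral ganglion neuron markers overlapped. Hair cell markers (12 genes) summed to 54.4 to 61.7 in knockouts and 45.97 to 50.4 in wild types. Of the tested genes 10 of 10 were above 0, with 4 at an unadjusted p under 0.05 and 0 called. Supporting cell, tectorial and spiral ligament markers (10 genes) summed to 392 to 425 in knockouts and 345 to 366 in wild types, with 8 of 9 tested genes above 0, 7 at an unadjusted p under 0.05 and 0 called. Over all tested genes 43.1% were below 0 and 17.6% had an unadjusted p under 0.05. Spiral ganglion neuron markers (12 genes), neurons being a known site of Ndn, summed to 222 to 280 in knockouts and 175 to 238 in wild types. Of these, 10 of 12 were above 0, with 5 at an unadjusted p under 0.05 and 1 called higher (Calb2, a calcium-binding protein gene). Nefm, a neurofilament gene, had 44.7, 50.95 and 41.8 FPKM in knockouts, against 31.5, 42.9 and 39.8 FPKM in wild types (log2 fold change 0.27, adjusted p = 0.304, limma), which overlapped. Tubb3, a neuronal tubulin gene, had 35.8, 47.2 and 34.9 FPKM in knockouts and 27.3, 43.8 and 37.98 FPKM in wild types, which overlapped. Strial marginal cell markers (8 genes) summed to 87.6 to 93.8 in knockouts and 74.5 to 76.5 in wild types. All 8 were tested and above 0, with 6 at an unadjusted p under 0.05 and 1 called higher (Esrrb, a nuclear receptor gene). Osteoblast markers (10 genes) summed to 4249 to 5546 in knockouts and 3949 to 4214 in wild types. All 10 were tested and above 0, with 5 at an unadjusted p under 0.05 and 0 called. The part of these shifts in the level of Ndn was not tested.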

How the data were processed

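Whole cochleae were profiled by RNA-seq, and the values used are FPKM per gene in 6 libraries, as deposited by the authors in 1 table (fragments scaled to exon length and library size). The build was GRCm38, per the submitters' processing notes. Aligner, counter and strand setting: not given in the sources used here. Groups come from the labels' genotype. Multiplying FPKM by the GENCODE M21 exon length and a factor per library gave whole fragments (within 0.01) in every library for 98.3% of genes, and the exon lengths of Peg3 and Rian were found from their values.

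The test was limma 3.58.1 in R 4.3.3 (lmFit, then eBayes with a trend) on log2(FPKM + 1), knockout over wild type, two-sided. Genes that reached 1 FPKM in 3 libraries or more entered, and p-values were Benjamini-Hochberg adjusted over all of them at 0.05. The procedure was first tested on simulated data. Single values were compared with an exact permutation test. Alternatives were pseudocounts of 0.1 and 0.5, other filters, other scalings, variance settings, voom on recovered fragments, sex as a covariate, a replicate block, protein-coding genes alone and each library left out. Tables were handled with Python 3.11.15, numpy 2.4.6 and pandas 2.3.3.

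Promoters and mature microRNAs are from RefSeq (GRCm38.p6). The genes and lists were chosen with earlier results of these data known. Of 259 list genes 3 were not matched. Genes named besides the 10 were Igf2, Igf2r and Neu4, called genes (among them those of the marker lists), and from each imprinted or growth list the 3 of at least 5 FPKM with the largest absolute fold change. Of the 2 highest genes of each marker list, those of the adipocyte and neuron lists are printed, besides Tectb, and their relation to Ndn was not tested. Magel2, Mkrn3, Peg12, Zim1, Dio3, Mirg, Copg2, Cep41, Kcnk9, Tnnt3, Tnni2, Lcn2 and Tectb were named after their values were seen.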

Additional observations from a re-analysis of the deposited data

How the results depend on the processing

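Against 47 genes called over the whole table, the count was 19 with no filter, 103 with a filter of 5 FPKM, 19 with no trend, 104 with library weights, 406 with voom on recovered fragments, 352 with voom at a minimum of 10 fragments, 24 with sex as a covariate, and 10 to 98 with 1 library left out (98 without knockout 5). The count of imprinted growth genes called was 0, and 1 (Ndn) with the 5 FPKM filter, library weights and both voom fits. Neighbours called (1, Mir3072) numbered 0 with no filter, the 5 FPKM filter, no trend, both voom fits, sex as a covariate and protein-coding genes, and 0 to 0 with 1 library left out. With voom on recovered fragments 2.89% of all genes were called. Its calls were 1 among other genes listed as maternally read (Kcnk9), 2 among hair cell, 4 among strial marginal, 3 among supporting cell, 2 among adipocyte, 2 among middle ear, 4 among mesenchyme and 1 among osteoblast markers. The main fit tested 19, 10, 8, 9, 8, 4, 12 and 10 genes of these lists, in that order. Strial calls were 0 with median-ratio and quantile scaling, against 1, and mesenchyme calls 1 with quantile scaling, against 2. Plagl1 turned to -0.053 without knockout 5 (range -0.053 to 0.22 with 1 library left out). Igf2, at -0.03, ranged from -0.15 to 0.069 with 1 library left out. Igf2r, at -0.02, was 0.0012 with quantile scaling and -0.061 to 0.021 with 1 library left out. The causes were not tested. No other imprinted growth gene changed sign or call under the alternatives it was fitted in.

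Replicate numbers 4 and 5 occur in both genotypes, and deviations of same-numbered libraries correlated at 0.141 and 0.1498, against -0.125 to 0.110 for other pairs. With 2 pairs this does not pair the samples. A replicate block was fitted on all 6 libraries. Numbers 2 and 3 occur in 1 genotype each, so its genotype difference rests on the 4 same-numbered libraries, with little left to estimate the error. It gave 22 calls over all genes, 2 among neighbours (Tnni2 and Tnnt3), 0.032 for Igf2, 0.041 for Igf2r and -0.59 for Dlk1. Depth limits Dlk1, Meg3 and Rian most, and with 3 libraries a group the exact test cannot go below 0.1.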

Other observations

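Genes of the wider juvenile growth programme, which is active in many young organs and declines with age, were measured beside the imprinted ones. Over all tested genes 43.1% were below 0, 17.6% had an unadjusted p under 0.05, 0.334% were called and the median log2 fold change was 0.02. Of the 14 genes of this programme 10 were tested, with 3 above and 7 below 0 and a median of -0.04. An unadjusted p under 0.05 was found for 0 of them, and 0 were called. Those of at least 5 FPKM with the largest differences were Ezh2, a histone methyltransferase gene (0.13, adjusted p = 0.331, limma), Mdk, the gene of the growth factor midkine (-0.12, adjusted p = 0.431), and Sox4, a transcription factor gene of progenitors (0.10, adjusted p = 0.312).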
